A study of Mus musculus with 24 samples.

Results

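The p53 pathway was followed through 32 genes in the kidney inner medulla of mice given cisplatin. They are Trp53, which encodes p53, and 31 of its known target and feedback genes, chosen by name, with earlier results of these data known. All 32 were found among the 55416 gene identifiers of the deposited count table, and all 32 passed the filter on low counts that left 18005 genes for testing. The mice were C57BL/6, a common inbred laboratory strain, 9 to 10 weeks old, and were injected once into the peritoneum with 100 µl of saline or of cisplatin in saline. Their inner medullae were frozen 72 h later, and poly(A)-selected RNA was sequenced. The groups were male cisplatin (15 mg/kg, n = 6 libraries), female cisplatin (15 mg/kg, n = 5), male saline (n = 6) and female saline (n = 7). No group carried a mutant allele or transgene per the labels. Whether 1 mouse gave 1 library is not stated by the labels, and the p-values therefore rest on library-to-library spread, which may be partly technical.

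Cisplatin, a platinum-based chemotherapy agent, forms crosslinks in DNA and injures kidney tubules. p53 is a transcription factor held at a low level in unstressed cells by the ubiquitin ligase Mdm2. DNA damage kinases stabilise the p53 protein without a need for more Trp53 RNA, and p53 then binds paired 10-base half-sites near its targets. Those targets stop the cell cycle, permit repair, start apoptosis or alter metabolism, and some of them (Mdm2, Ppm1d, Ccng1) feed back on p53. In the kidney, p53 and its target Cdkn1a are known for their activation in tubule cells after cisplatin.

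Libraries held between 18084242 and 27279102 counts, so counting error was small beside the spread between libraries except for the scarcest genes. The labelled tissue was checked by summed marker levels. The 8 principal cell markers of the collecting duct summed to between 5134 and 11249 CPM (counts scaled to library size) in the 24 libraries, and the 6 thin limb markers to between 4083 and 7670.5 CPM. Markers of neighbouring segments varied widely, with proximal tubule sums of 51.7 to 1038 CPM and thick ascending limb sums of 1179 to 14118 CPM. A few libraries stood apart: male cisplatin 5 had the highest proximal tubule (1038 CPM) and urothelium (1705 CPM) sums, female saline 1 had the highest lymphocyte sum (36.3 CPM), and female saline 6 had the lowest thick ascending limb sum (1179 CPM). Results that change without these libraries are given with both values.

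The sequences that p53 reads were looked up in the RefSeq promoter windows at hand (build GRCm38.p6, 250 bases before to 50 bases after a gene's start), which included 25 of the 32 genes. The p53 half-site was searched as 3 purines, C, 2 bases that are A or T, G and 3 pyrimidines, a pattern that is its own reverse complement, so both strands are covered at once. It occurred in the windows of 11 of the 25 genes (44.0%), against 2582 of all 27025 genes in the table (9.55%). Those 11 were Trp53, Mdm2, Ppm1d, Ccng1, Cdkn1a, Gtse1, Bax, Aen, Ei24, Polk and Sesn1. Counted by window, a half-site was in 34.3% of the 35 windows of the 25 genes, against 8.36% of all 32851 windows. The genes were chosen as p53 and its known targets, so this excess says nothing about the present libraries. Cdkn1a has 2 starts in the table, 2790 bases apart, and the window of its upstream start was the one among the 25 genes with 2 half-sites separated by at most 13 bases, a layout found in 0.074% of all genes (20). That stretch is shown because Cdkn1a is the classic arrest gene of the pathway and holds the paired layout. Capitals mark the exact matches to the searched pattern, and the spacer between them has 12 bases. The second match ends at -42 from the start. Its core letters (C, A, T, G) recur 10 bases on in lower case, as in 2 half-sites with no spacer, at -48 to -35. This recurrence was found in the windows of 0.833% of all genes (225) and, among the 25, in Cdkn1a alone. The pair in capitals is therefore not shown to be the pair that p53 reads. The stretch lies at chr17:29090879-29090978 on the plus strand.
Cdkn1a: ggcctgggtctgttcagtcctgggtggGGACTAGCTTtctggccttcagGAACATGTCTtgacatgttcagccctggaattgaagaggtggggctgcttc

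Single half-sites are shown with 10 bases on each side for the other genes that hold one, so that those that rose over both sexes (Bax, Aen, Ccng1, Gtse1), the one that fell (Ppm1d) and those that passed in neither direction (Trp53, Mdm2, Ei24, Polk, Sesn1) can be set side by side. Each runs 5′ to 3′ on the gene's own strand, with the half-site in capitals. Their positions are chr7:45467080-45467109 (minus) for Bax, chr7:78895927-78895956 (plus) for Aen, chr11:40755452-40755481 (minus) for Ccng1, chr15:85859945-85859974 (plus) for Gtse1, chr11:85311112-85311141 (plus) for Ppm1d, chr11:69580274-69580303 (plus) for Trp53, chr10:117710925-117710954 (minus) for Mdm2, chr9:36797325-36797354 (minus) for Ei24, chr13:96519399-96519428 (minus) for Polk and chr10:41887256-41887285 (plus) for Sesn1.
Bax: agcatatcccAGGCAAGCTTtgaacttgcg
Aen: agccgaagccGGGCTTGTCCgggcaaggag
Ccng1: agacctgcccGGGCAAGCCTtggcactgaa
Gtse1: gagcaagttgGGGCTTGCCTctgacttgcc
Ppm1d: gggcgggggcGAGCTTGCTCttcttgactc
Trp53: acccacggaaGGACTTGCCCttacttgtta
Mdm2: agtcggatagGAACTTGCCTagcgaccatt
Ei24: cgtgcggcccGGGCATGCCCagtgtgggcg
Polk: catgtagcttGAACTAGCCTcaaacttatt
Sesn1: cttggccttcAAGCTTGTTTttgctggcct
A half-site was present in genes that passed the test in either direction and in genes that did not. These are matches of letters in a short window, and binding was not measured.

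Over both sexes, cisplatin raised 11 of the 32 genes and lowered 1, by edgeR's quasi-likelihood test with a Benjamini-Hochberg adjusted p under 0.05 over all genes tested. The genes that rose were Gdf15, Psrc1, Cdkn1a, Aen, Gtse1, Trp53inp1, Bax, Pidd1, Fas, Ccng1 and Sesn2, and the gene that fell was Ppm1d. Among all genes tested, 16.2% were higher and 10.9% were lower in the same comparison. In males alone 9 of the 32 rose and Ppm1d fell, where 13.2% of all genes were higher and 7.54% lower. In females alone 0 of 32 passed by edgeR, which called 0.272% of all genes. There 10 of the 32 had an unadjusted p under 0.05 by edgeR, beside 2664 of all 18005 genes. DESeq2 called 1 of the 32 in females (Aen, adjusted p = 0.0449) and 1.34% of all genes. The median log2 fold change of the 32 genes was 0.22 over both sexes, 0.25 in males and 0.13 in females, beside 0.01, 0.02 and 0.01 for all genes tested. Without male cisplatin 5, female saline 1 and female saline 6 together, 13 rose over both sexes, where 14.7% of all genes were higher. Perp and Zmat3 were added (adjusted p = 0.0323 and 0.0382 by edgeR). In males 10 then rose, with Ccng1 and Sesn2 added (adjusted p = 0.0249 and 0.0164) and Fas lost (adjusted p = 0.0635), where 10.6% of all genes were higher. In a bulk tissue, a change in the number of cells of a type and a change in RNA per cell cannot be told apart.

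**Figure D1:**
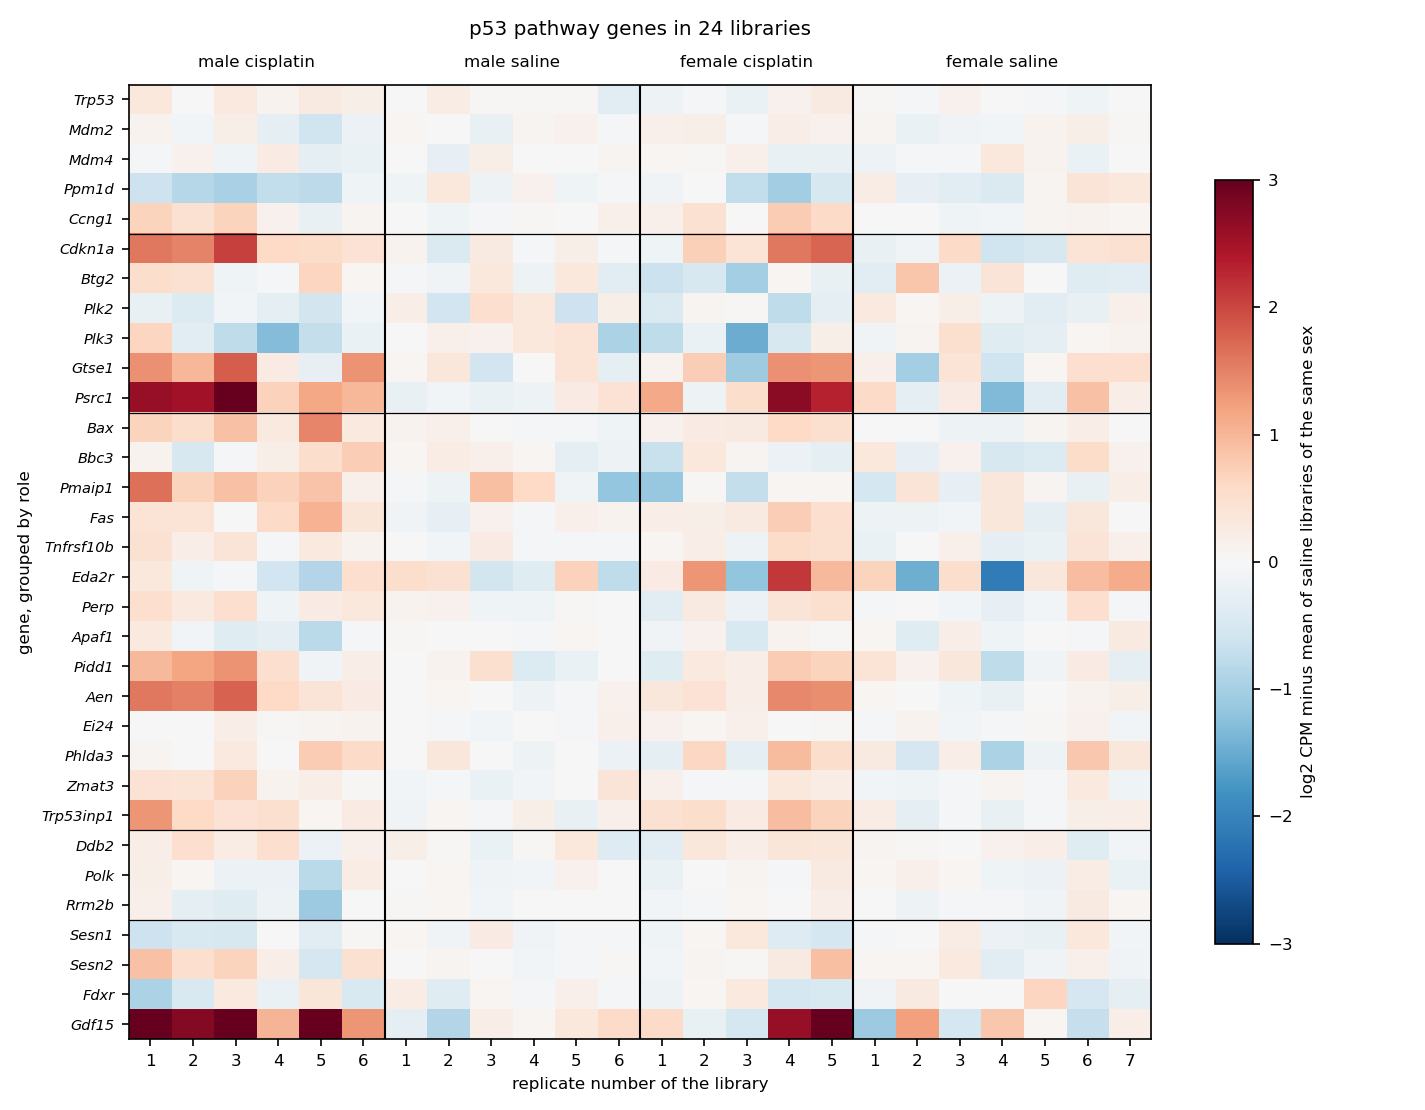
Log2 CPM of each of the 32 genes (rows, grouped by role) in each of the 24 libraries (columns, by group and replicate number), minus the mean of the saline libraries of the same sex. Colours are saturated beyond 3 in either direction. Gdf15, Psrc1, Cdkn1a and Aen lie above the saline mean (red) in every male cisplatin library and in female cisplatin 4 and 5. The shade is faint in places, with Cdkn1a at 0.44 and Aen at 0.25 in male cisplatin 6. Over the 24 libraries Trp53 runs from -0.33 to 0.31 and Mdm2 from -0.60 to 0.20.

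Of p53 itself and its 4 feedback genes, Ccng1 rose, Ppm1d fell, and Trp53, Mdm2 and Mdm4 did not pass the test over both sexes. Trp53 (ENSMUSG00000059552, chr11:69580359-69591873) averaged 54.1 ± 4.31 CPM in male cisplatin (n = 6) and 47.4 ± 5.69 CPM in male saline (n = 6), errors being SD between libraries throughout. Its male cisplatin levels ran from 47.7 to 58.3 CPM (median 54.7) and overlapped male saline levels of 37.3 to 54.9 CPM (median 48.4). In females Trp53 had 46.1, 48.7, 44.6, 55.8 and 61.8 CPM under cisplatin, against 46.9 to 55.9 CPM (median 50.9) under saline, again overlapping. Over both sexes its log2 fold change was 0.10 ± 0.06 (SE), with a 95% interval of -0.03 to 0.23 and an adjusted p of 0.246 (edgeR). In males it was 0.19 (95% interval 0.01 to 0.38, unadjusted p = 0.0425, adjusted p = 0.125 by edgeR). In females it was 0.01 (-0.18 to 0.19, adjusted p = 0.977).

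Mdm2 (ENSMUSG00000020184, chr10:117688875-117710758), which marks p53 for degradation and is itself a p53 target, did not pass the test in either sex. Its levels were 45.8 to 78.5 CPM (median 63.8) in male cisplatin and 59.6 to 76.2 CPM (median 70.7) in male saline. In females the cisplatin libraries had 69.5, 70.7, 61.6, 72.2 and 68.8 CPM and the saline libraries 54.6 to 71 CPM (median 64.4). The groups overlapped in both sexes, and the log2 fold change over both sexes was -0.00 ± 0.07 (95% interval -0.15 to 0.15, adjusted p = 0.984 by edgeR). That interval bounds the change in either direction, and the sign of so small a value turned with the setting. Mdm4, a relative of Mdm2 that also restrains p53, had a log2 fold change of -0.04 (95% interval -0.19 to 0.11).

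Ppm1d (ENSMUSG00000020525, chr11:85311244-85347066), a phosphatase that switches off DNA damage signalling and p53, was the one gene of the 32 that fell. It had 32.1 to 57.7 CPM (median 37.4) in male cisplatin, against 57 to 78.9 CPM (median 60.3) in male saline. In 5 of the 6 male cisplatin libraries it lay below every male saline library, and male cisplatin 6 lay within their range. Female cisplatin libraries had 64.2, 67.7, 41.1, 33.1 and 49.5 CPM, against 50.9 to 90.1 CPM (median 72.2) in female saline, with 3 of 5 below the saline range. The log2 fold change over both sexes was -0.56 ± 0.12 (0.677-fold, adjusted p = 0.00252 by edgeR).

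Ccng1 (ENSMUSG00000020326, chr11:40748552-40755311), cyclin G1, which recruits a phosphatase that activates Mdm2, rose over both sexes by 0.37 ± 0.09 on the log2 scale (adjusted p = 0.00518 by edgeR). Its levels were 115 to 213 CPM (median 164) in male cisplatin and 123 to 148 CPM (median 132) in male saline. The male groups overlapped, since male cisplatin 5 (115 CPM) lay below every male saline library while 3 of 6 lay above. In females the cisplatin libraries had 133, 162, 120, 202 and 176 CPM and the saline libraries 109 to 127 CPM (median 117), so that 4 of 5 lay above the saline range. Ccng1 did not pass in males alone (adjusted p = 0.0697), but passed there without male cisplatin 5 (0.0211) or male cisplatin 6 (0.0384).

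Of the 6 cell cycle genes, Cdkn1a, Gtse1 and Psrc1 rose, and Btg2, Plk2 and Plk3 did not pass the test. Cdkn1a (ENSMUSG00000023067, chr17:29090976-29100727) encodes p21, the inhibitor of cyclin-dependent kinases through which p53 halts the cycle. Male cisplatin libraries held 143, 134, 199, 72.4, 70.3 and 65 CPM of Cdkn1a, all above the male saline libraries at 35.3 to 57.4 CPM (median 49). Female cisplatin libraries had 38.2, 69.6, 55.6, 126 and 140 CPM, against 27.8 to 62.2 CPM (median 38.9) in female saline, so that 3 of 5 lay above the saline range and 2 within it. Cdkn1a was 2.35-fold higher in male cisplatin than in male saline (log2 1.23 ± 0.30, adjusted p = 0.00791 by edgeR), and 2.14-fold higher over both sexes (log2 1.10 ± 0.21, adjusted p = 0.00108).

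Psrc1 (ENSMUSG00000068744, chr3:108383839-108388231), a microtubule-binding protein of the mitotic spindle, and Gtse1 (ENSMUSG00000022385, chr15:85859745-85876573), a microtubule-associated protein that in human cells carries p53 out of the nucleus, both rose and were scarce. Psrc1 had 0.635 to 4.15 CPM (median 1.65) in male cisplatin and 0.321 to 0.524 CPM (median 0.344) in male saline, with no overlap. Female cisplatin libraries had 0.82, 0.311, 0.528, 2.53 and 1.92 CPM of Psrc1, against 0.114 to 0.684 CPM (median 0.409) in female saline, with 3 of 5 above that range. Its counts ran from 3 to 75 per library, so counting error adds to the spread of this gene. Over both sexes Psrc1 was 3.86-fold higher (log2 1.95 ± 0.35, adjusted p = 0.000656 by edgeR).

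Gtse1 had 1.39 to 5.97 CPM (median 3.81) in male cisplatin and 1.1 to 2.23 CPM (median 1.69) in male saline. In females it had 1.81, 2.84, 0.792, 4.43 and 4.31 CPM under cisplatin, against 0.811 to 2.43 CPM (median 1.88) under saline. The groups overlapped in both sexes, with 4 of 6 male and 3 of 5 female cisplatin libraries above the saline range. Its log2 fold change was 0.85 ± 0.26 over both sexes (adjusted p = 0.0184 by edgeR) and 1.06 ± 0.37 in males (adjusted p = 0.0434). Over both sexes the call was lost without female cisplatin 4 (adjusted p = 0.0509), and in males it was lost without male cisplatin 1, 2, 3 or 6, without any 1 of the 6 male saline libraries, or without female saline 5 (adjusted p between 0.05002 and 0.118).

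Btg2, an antiproliferative transcription cofactor, and the polo-like kinases Plk2 and Plk3 had log2 fold changes over both sexes of -0.11, -0.29 and -0.42 (adjusted p of 0.584, 0.0858 and 0.109 by edgeR). Plk2 passed as lower without male saline 2 (adjusted p = 0.0408) or male saline 5 (0.0369), and Plk3 without male cisplatin 1 (0.0215). Btg2 had the highest level of the 32 genes per kilobase of exon, at 58.8 ± 13.01 CPM per kb in male cisplatin and 49.2 ± 9.18 CPM per kb in male saline. On the same scale Psrc1 had the lowest level in male saline, at 0.115 ± 0.025 CPM per kb, with 0.565 ± 0.409 CPM per kb in male cisplatin.

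**Figure D2:**
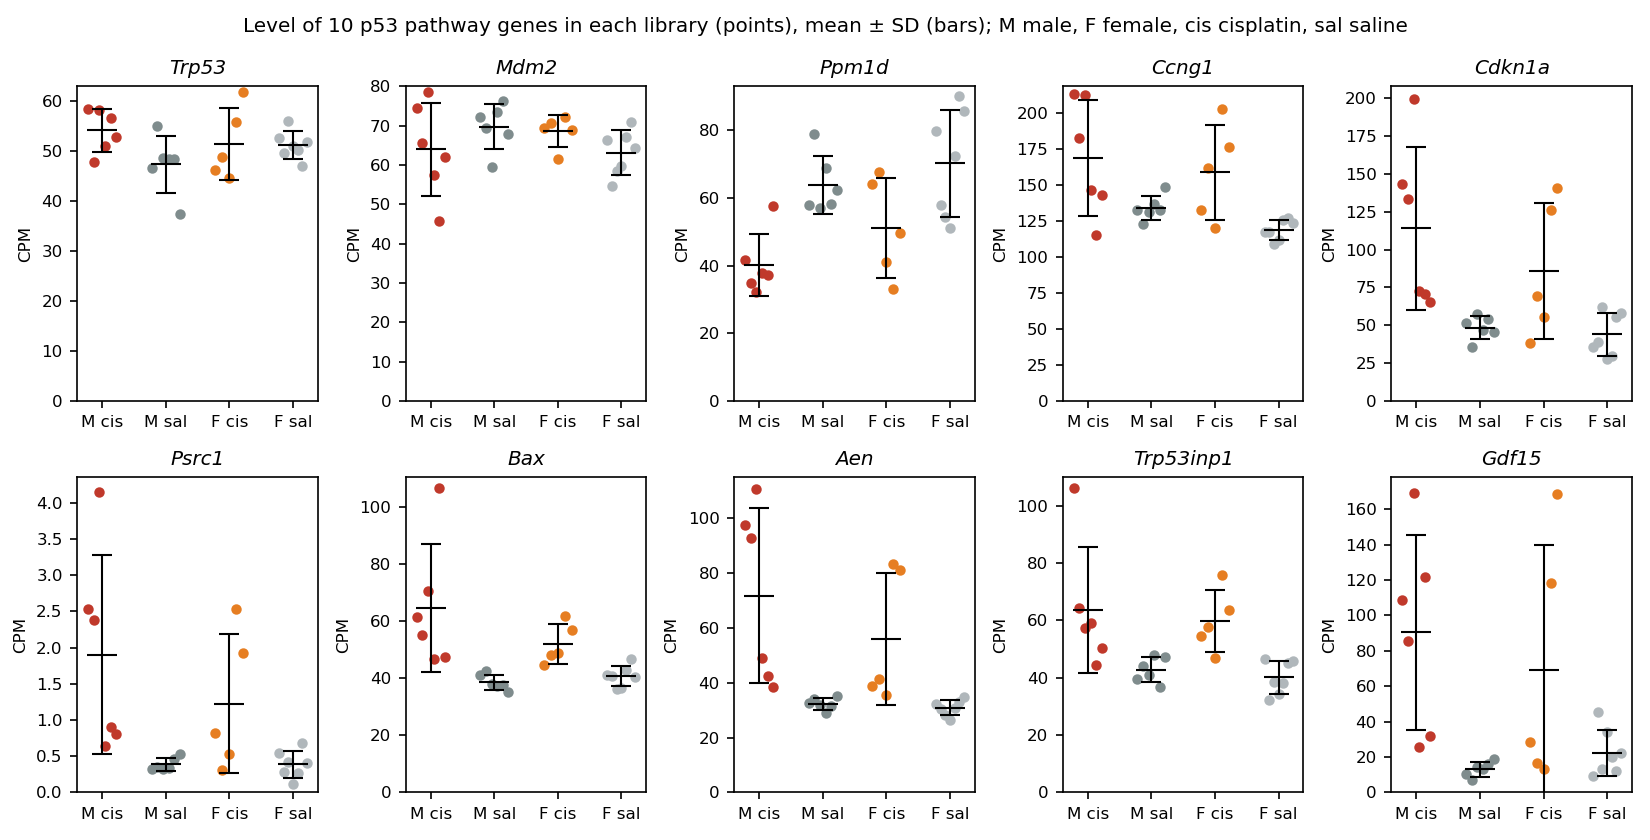
CPM of 10 of the genes (Trp53, Mdm2, Ppm1d, Ccng1, Cdkn1a, Psrc1, Bax, Aen, Trp53inp1 and Gdf15) in each library. Points are libraries, horizontal marks group means and bars SD, cut at 0 where the SD exceeds the mean; each vertical axis is linear and starts at 0. Male cisplatin libraries of Cdkn1a, Psrc1, Bax, Aen and Gdf15 lie above every male saline library, and Aen and Trp53inp1 also separate the female groups.

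The 14 genes of cell death and survival held 5 that rose over both sexes, Bax, Fas, Pidd1, Aen and Trp53inp1, and 0 that fell. Bax (ENSMUSG00000003873, chr7:45461697-45466898), which permeabilises the mitochondrial outer membrane in apoptosis, had 47 to 107 CPM (median 58.4) in male cisplatin and 35.3 to 42.5 CPM (median 37.8) in male saline. The highest of these was male cisplatin 5, and all 6 male cisplatin libraries lay above male saline. In females Bax had 44.7, 48.4, 49, 61.9 and 57.1 CPM under cisplatin and 36.3 to 46.9 CPM (median 40.9) under saline, with 4 of 5 above the saline range. It was 1.68-fold higher in males (log2 0.75 ± 0.15, adjusted p = 0.00189 by edgeR) and 1.47-fold higher over both sexes (adjusted p = 0.000805). Its exons share 12.2% of their length with the gene Gm45808 on the same strand, so reads there cannot be assigned with certainty.

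Aen (ENSMUSG00000030609, chr7:78895854-78911209), a nuclease that digests nuclear DNA in apoptosis, was above the saline range of its sex in 11 of 11 cisplatin libraries. It had 97.6, 93, 111, 49.1, 42.5 and 38.4 CPM in male cisplatin, against 28.9 to 35.3 CPM (median 32.3) in male saline. Female cisplatin libraries had 38.8, 41.2, 35.6, 83.2 and 81.1 CPM of Aen, against 26.5 to 34.7 CPM (median 30.9) in female saline. Within each cisplatin group the values formed a higher set (male 1 to 3, female 4 and 5) and a lower set close to the saline range, and 4 of the 5 in the higher set (all but male 3) had the lowest tubule marker scores of the cisplatin libraries, as given below. Aen was 2.00-fold higher over both sexes (log2 1.00 ± 0.17, adjusted p = 0.000328 by edgeR).

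Trp53inp1 (ENSMUSG00000028211, chr4:11156431-11174379), which helps p53 to become phosphorylated and promotes autophagy, rose by 0.57 ± 0.11 on the log2 scale over both sexes (adjusted p = 0.00122 by edgeR). Its levels were 44.3 to 106 CPM (median 58.3) in male cisplatin and 36.8 to 47.9 CPM (median 42.7) in male saline, with 5 of 6 above the saline range. In females it had 54.5, 57.8, 46.8, 76 and 63.6 CPM under cisplatin and 32.2 to 46.7 CPM (median 38.5) under saline, with no overlap. The log2 fold change was 0.57 ± 0.16 in each sex, and the difference between the sexes was 0.00 (95% interval -0.46 to 0.47). In females its adjusted p was 0.131, and it passed in females by edgeR when male cisplatin 1, which shares the fit's estimate of the spread, was left out (1 gene called).

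Fas (ENSMUSG00000024778, chr19:34290666-34327772), a death receptor, had 15.1 to 31.7 CPM (median 20.3) in male cisplatin and 12.9 to 17.1 CPM (median 15.8) in male saline. The 5 female cisplatin libraries had 17.9, 17.8, 18.8, 26.2 and 22.4 CPM, against 12.9 to 19.8 CPM (median 14.7) in female saline. The groups overlapped by 1 library in males and by 3 in females. Fas rose by 0.43 ± 0.11 on the log2 scale over both sexes (adjusted p = 0.0048 by edgeR) and by 0.49 ± 0.15 in males (adjusted p = 0.0233). The male call was lost without male cisplatin 5 (adjusted p = 0.0755), which had the highest value, or without male saline 2 (0.0526).

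Pidd1 (ENSMUSG00000025507, chr7:141438113-141444025), the scaffold of the PIDDosome that activates caspase-2, had 2.03 to 5.58 CPM (median 3.72) in male cisplatin and 1.63 to 3.05 CPM (median 2.2) in male saline. In females it had 1.77, 2.84, 2.64, 3.89 and 3.68 CPM under cisplatin and 1.33 to 3.06 CPM (median 2.53) under saline, so the groups overlapped in both sexes. Its log2 fold change was 0.54 ± 0.18 over both sexes (adjusted p = 0.0301 by edgeR) and 0.75 ± 0.25 in males (adjusted p = 0.0383). Over both sexes the call was lost without male cisplatin 2 or 3, male saline 4, or female cisplatin 4 or 5 (adjusted p between 0.0527 and 0.0722). In males it was lost without male cisplatin 1, 2 or 3 or male saline 1, 2, 4, 5 or 6 (0.0556 to 0.107).

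The other 9 genes of this role did not pass over both sexes. Bbc3 and Pmaip1, the BH3-only proteins Puma and Noxa that release mitochondrial apoptosis, had log2 fold changes of 0.03 (95% interval -0.26 to 0.31) and 0.23 (-0.18 to 0.64). Apaf1, the core of the apoptosome, was at -0.12 (-0.33 to 0.09), and Ei24, an endoplasmic reticulum protein of autophagy, was at 0.08 (-0.01 to 0.17). In males Apaf1 lay below the saline range in 5 of 6 cisplatin libraries and above it in 1 (log2 -0.18, adjusted p = 0.373 by edgeR). Perp, a membrane protein of desmosomes, was at 0.22, the RNA-binding protein Zmat3 at 0.21, the death receptor Tnfrsf10b at 0.24, the Akt inhibitor Phlda3 at 0.30 and the receptor Eda2r at 0.28 (adjusted p of 0.0825, 0.0598, 0.0806, 0.182 and 0.561 by edgeR). In males Perp lay above the saline range in 5 of 6 cisplatin libraries, and in females in 0 of 5. Perp passed without male cisplatin 4, female cisplatin 1 or 3 or female saline 6 (adjusted p between 0.025 and 0.0465), and Tnfrsf10b without male cisplatin 4, female cisplatin 3 or female saline 6 (0.0395 to 0.0499). Zmat3 passed without male cisplatin 4 or 6, male saline 6, female cisplatin 2 or 3 or female saline 6 (0.0228 to 0.0489). In males alone Pmaip1 (adjusted p = 0.0605) passed by DESeq2 (0.0376), which called 24.2% of all genes there, and by edgeR without male cisplatin 6 (0.0262) or male saline 3 (0.0263). Zmat3 did so without male cisplatin 4 or 6 or male saline 6 (0.0241 to 0.0413), and Perp without male cisplatin 4 (0.0441).

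Of the 3 genes of repair and nucleotide supply, 0 passed in any of the cisplatin comparisons by edgeR, and DESeq2 called 0 over both sexes. Ddb2, which recognises ultraviolet and other bulky lesions for excision repair, had 8.93, 14.3, 13, 14.6 and 14.3 CPM in female cisplatin, against 8.85 to 13 CPM (median 11.5) in female saline. Its log2 fold change over both sexes was 0.22 (95% interval 0.01 to 0.42, unadjusted p = 0.0444, adjusted p = 0.114), and it passed without female cisplatin 1 (adjusted p = 0.0368), the 1 female cisplatin library at the foot of the saline range. Its exons share 23.8% of their length with Acp2 on the opposite strand, and no source used here gives the strand setting of the counting. Polk, a translesion polymerase, was at -0.03 (-0.22 to 0.16), and Rrm2b, the p53-inducible subunit of ribonucleotide reductase, at -0.11 (-0.30 to 0.08). In males Rrm2b lay below the saline range in 4 of 6 cisplatin libraries, with 25.4 to 60.9 CPM in male cisplatin and 51.4 to 56.8 CPM in male saline.

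Among the 4 genes of metabolism and stress, Gdf15 and Sesn2 rose and Sesn1 and Fdxr did not pass. Gdf15 (ENSMUSG00000038508, chr8:70629393-70632456), a secreted stress cytokine that acts on appetite through a receptor in the brainstem, had the largest log2 fold change of the 32 genes in males and over both sexes. Male cisplatin libraries held 109, 85.4, 169, 25.6, 122 and 31.8 CPM, all above the male saline libraries at 6.79 to 18.9 CPM (median 13.8). Female cisplatin libraries had 28.6, 16.6, 13.5, 118 and 169 CPM, against 9.09 to 45.3 CPM (median 20) in female saline, so that female cisplatin 4 and 5 lay above the saline range and the other 3 within it. Gdf15 was 6.84-fold higher in males (log2 2.77 ± 0.58, adjusted p = 0.00297 by edgeR) and 4.61-fold higher over both sexes (log2 2.20 ± 0.39, adjusted p = 0.00057). In females its log2 fold change was 1.64 with a 95% interval of 0.52 to 2.75 (adjusted p = 0.189), close to that of Psrc1 (1.62).

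Sesn2 (ENSMUSG00000028893, chr4:132492032-132510501), a leucine sensor that restrains mTORC1 and is a target of both p53 and ATF4, had 42.7 to 112 CPM (median 85.3) in male cisplatin and 57.4 to 64.3 CPM (median 61.4) in male saline. Of the male cisplatin libraries 5 lay above the saline range and male cisplatin 5 below it. Levels in female cisplatin were 51.7, 57.7, 56.4, 65.7 and 102 CPM, against 43 to 66.6 CPM (median 56.7) in female saline, with 1 of 5 above. Its log2 fold change over both sexes was 0.35 ± 0.12 (adjusted p = 0.0346 by edgeR), and the call was lost without male cisplatin 1, 2 or 3, male saline 3 or 4, female cisplatin 4 or 5 or female saline 4 (adjusted p between 0.0511 and 0.107). In males Sesn2 had an adjusted p of 0.0753 and passed without male cisplatin 5 (0.0134) or female cisplatin 5 (0.0442).

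Sesn1, the other sestrin under p53, had a log2 fold change of -0.20 (95% interval -0.40 to -0.00, adjusted p = 0.117) and passed as lower without female cisplatin 3 (adjusted p = 0.0322), as it did in males without male cisplatin 6 (0.0432). Fdxr, a mitochondrial reductase that donates electrons to steroid and iron-sulphur synthesis, was at -0.17 (-0.47 to 0.13). The sestrins thus stood on opposite sides of 0 over both sexes, and the difference between the genes was not tested.

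The genes that rose did so unevenly among the cisplatin libraries. Of the 32 genes, 21 lay above the male saline range in male cisplatin 1, 15 in male cisplatin 2, 17 in male cisplatin 3, 11 in male cisplatin 4, and 13 each in male cisplatin 5 and 6. For all genes tested the shares above the saline range in these libraries were 30.9%, 30.6%, 33.3%, 24.5%, 36.9% and 18.7%, beside 65.6%, 46.9%, 53.1%, 34.4%, 40.6% and 40.6% of the 32. Among females 5, 8, 6, 16 and 15 of the 32 lay above the saline range in female cisplatin 1 to 5. Those are 15.6%, 25%, 18.8%, 50% and 46.9% of the 32, beside 14.7%, 12.9%, 15.4%, 27.6% and 24.8% of all genes. Female cisplatin 1 and 3 and male cisplatin 5 thus stood near the share of all genes. Below the saline range lay 3, 6, 5, 6, 10 and 2 of the 32 in male cisplatin 1 to 6, where 28.9%, 29.3%, 31.3%, 21.1%, 35% and 15.4% of all genes did so, and 8, 1, 7, 6 and 3 of the 32 in female cisplatin 1 to 5, where 13.5%, 11.5%, 15.6%, 25.5% and 21.2% of all genes did so. The mean log2 CPM of the 18 proximal tubule and thick ascending limb markers varied along with these counts, at 3.19, 3.29, 4.98, 5.69, 5.26 and 4.65 in male cisplatin 1 to 6 and 4.58, 4.85, 5.55, 4.16 and 3.53 in female cisplatin 1 to 5. It was lowest in male cisplatin 1 and 2 and female cisplatin 4 and 5, all of which had at least 15 of the 32 genes above the saline range, while male cisplatin 3 had 17 at a score of 4.98. The saline libraries had scores of 4.67 to 6.06 in males and 3.82 to 5.58 in females.

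**Figure D3:**
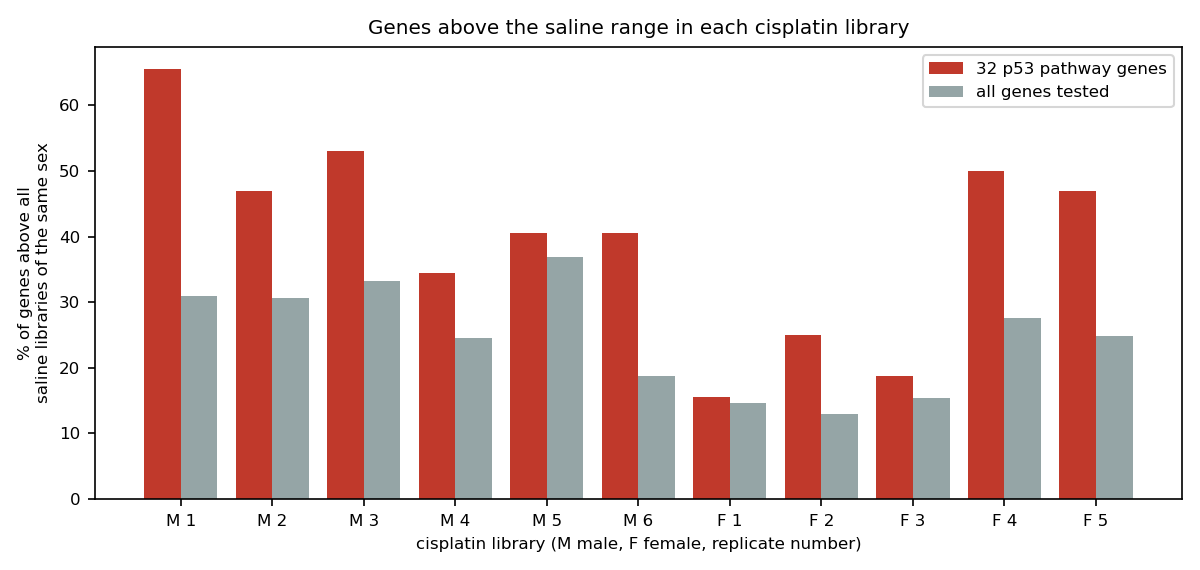
Share of genes above every saline library of the same sex in each cisplatin library, for the 32 p53 pathway genes (red) and for all genes tested (grey). The share of the 32 runs from 15.6% in female cisplatin 1 to 65.6% in male cisplatin 1.

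By gene, Aen exceeded the saline range in 11 of 11 cisplatin libraries, Bax and Trp53inp1 in 10, Cdkn1a and Psrc1 in 9, and Gdf15 in 8. Every male cisplatin library lay above every male saline library for 5 of the 32 (Cdkn1a, Psrc1, Bax, Aen and Gdf15), against 3.45% of all genes, and below for 0, against 2.48%. In females the same held above for 2 (Aen and Trp53inp1), against 0.511% of all genes, and below for 0, against 0.339%. The SD of log2 CPM was larger in cisplatin than in saline for 26 of the 32 genes in males, where the median SD was 0.375 in cisplatin and 0.183 in saline. In females it was larger for 23 of the 32, with medians of 0.351 in cisplatin and 0.233 in saline. The wider spread under cisplatin was shared with the rest of the transcriptome, at 84.4% of all genes in males and 65.4% in females.

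Whether cisplatin acted differently on these genes in the sexes was tested as the female minus the male log2 fold change. By edgeR 0 of the 32 passed, DESeq2 called 0 of the 32, and edgeR called 0 of all 18005 genes. Of the 32, 2 (Btg2 and Pmaip1) had an unadjusted p under 0.05 by edgeR, beside 772 of all 18005 genes. Each of the 10 genes called in males had the same sign in females, and 9 of the 10 were larger in males. Among all genes called in males these shares were 96.5% and 97.7%, so the 10 did as other called genes did. Genes picked for passing in males tend to have larger values there, so the 9 of 10 does not compare the sexes. For Cdkn1a the difference was -0.27 (95% interval -1.14 to 0.61) and for Aen -0.29 (-0.98 to 0.40). These intervals are wide, and a p that misses the threshold does not show equal responses.

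**Figure D4:**
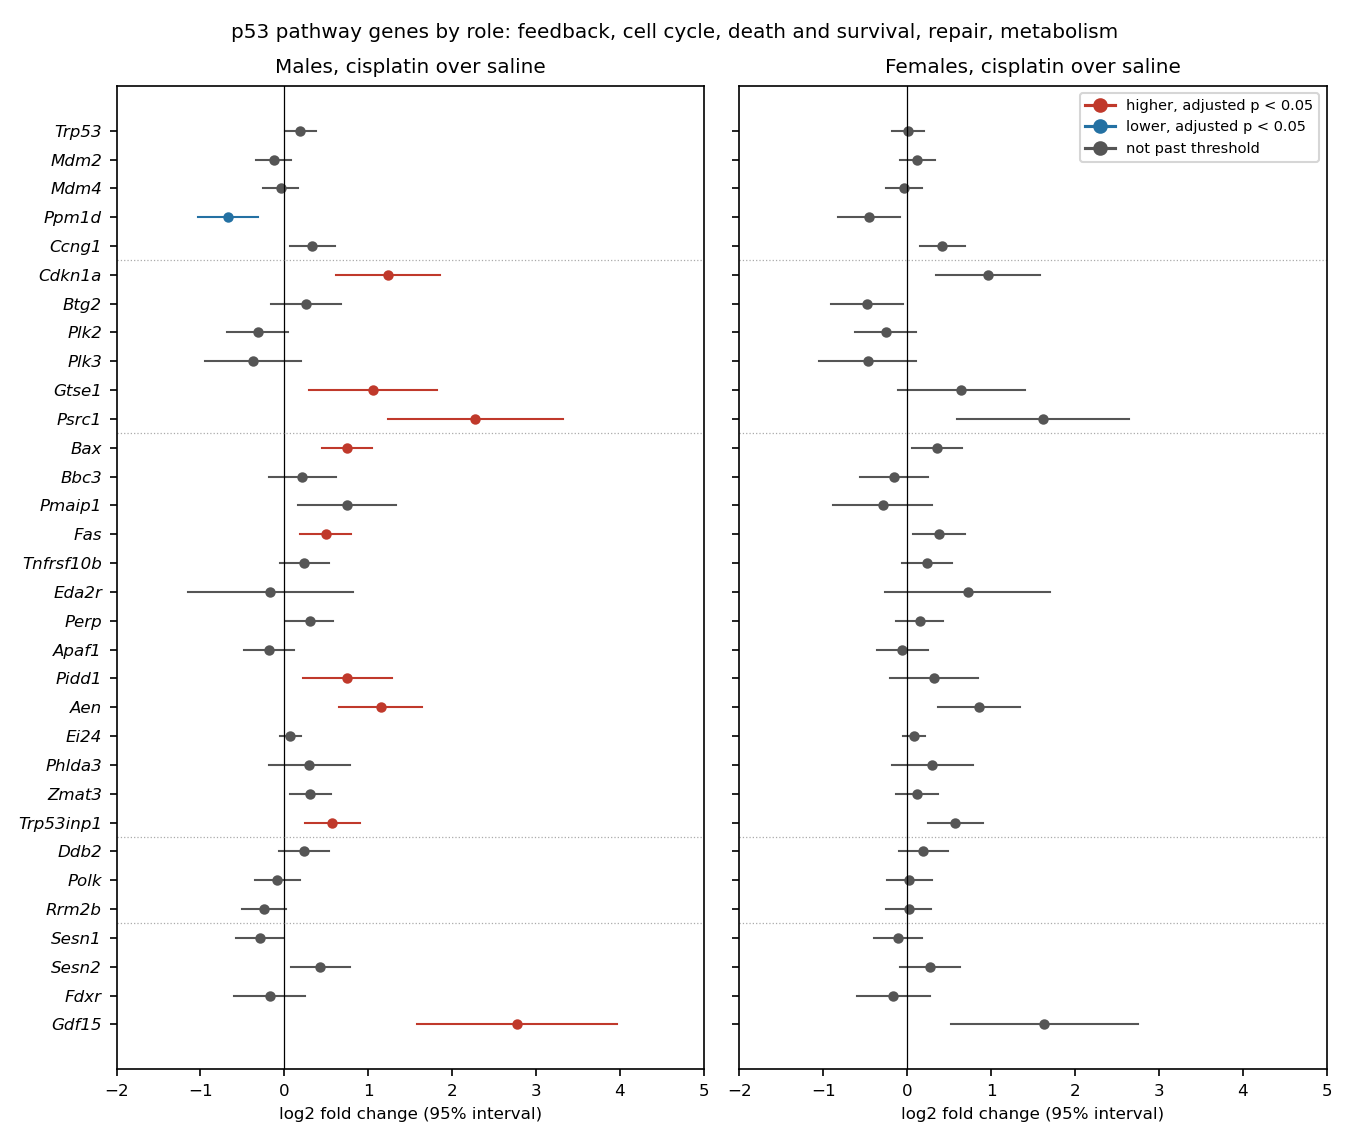
Log2 fold change of cisplatin over saline for each of the 32 genes in males and in females, with 95% intervals from edgeR, in red (higher) or blue (lower) where the adjusted p is under 0.05 and grey otherwise. The intervals of the sexes overlap for Gdf15, Psrc1, Cdkn1a and Aen, and 0 of the 32 genes are called in females.

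The effects on Pmaip1 and Btg2 had opposite signs in the sexes, without passing the test of the difference. Pmaip1 had 7.34 to 20.9 CPM (median 11.5) in male cisplatin and 2.94 to 12.4 CPM (median 6.23) in male saline, while female cisplatin libraries had 6.86, 15.6, 9.23, 15.8 and 16 CPM and female saline libraries 10.5 to 19.8 CPM (median 16.2). The difference of the effects was -1.04 ± 0.40 on the log2 scale (unadjusted p = 0.0154, adjusted p = 0.943 by edgeR). For Btg2 it was -0.74 ± 0.29 (unadjusted p = 0.0177, adjusted p = 0.943). Btg2 averaged 58.8 ± 13.01 CPM per kb in male and 59.6 ± 16.58 in female cisplatin. Under saline it averaged 49.2 ± 9.18 in males and 83.3 ± 29.62 in females. For Pmaip1 these means were 4.51 ± 1.667 and 4.65 ± 1.585 under cisplatin, and 2.67 ± 1.225 and 5.705 ± 1.309 under saline. The same saline libraries enter the effects above and the saline difference below, so these are not separate results. Under saline, the log2 difference of female over male libraries was 1.09 ± 0.28 for Pmaip1 and 0.76 ± 0.20 for Btg2 (adjusted p = 0.204 and 0.255 by edgeR). DESeq2 called both (adjusted p = 0.0219 and 0.0497) and 0.322% of all genes, and edgeR called 0 of the 32 between the sexes under saline, where 0.189% of all genes were called, with 0.0611% of all genes higher and 0.128% lower in females.

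Other genes of the pathway were described from lists that held none of the 32, apart from the one of ATF4 targets. The counts of each list can be read against the 16.2% of all genes that were higher and the 10.9% that were lower over both sexes. Of 27 tested genes among 28 further p53 targets, 10 rose and 3 fell over both sexes, and their median log2 fold change was 0.13. Sfn, the cell cycle inhibitor 14-3-3 sigma, averaged 94.6 ± 37.3 CPM in male cisplatin and 27.2 ± 2.08 CPM in male saline (log2 1.52 ± 0.22 over both sexes, adjusted p = 6.92e-05 by edgeR). Gadd45a, a DNA damage-inducible growth arrest protein, averaged 99.9 ± 36.7 CPM in male cisplatin and 42 ± 5.78 CPM in male saline (1.09 ± 0.16, adjusted p = 8.01e-05). Prkab1, a regulatory subunit of AMP-activated kinase, rose by 0.49 ± 0.10 (adjusted p = 0.00165). Those that fell were the ferrireductase Steap3 (-0.70), the autophagy protein Dram1 (-0.69) and the damage sensor Xpc (-0.22).

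Among 13 tested genes of 14 upstream of p53, 2 rose and 3 fell, with a median of -0.07. The kinases Hipk2 (-0.80 ± 0.16, adjusted p = 0.00149 by edgeR), Atm (-0.50 ± 0.16, 0.0253) and Prkdc (-0.29 ± 0.08, 0.0108), which phosphorylate p53 or act in the damage response, fell. Rchy1, another p53 ubiquitin ligase, and Chek2, a checkpoint kinase, rose by 0.20 and 0.24. p53 also represses cell cycle genes through p21 and the DREAM complex, and of 19 tested genes among 22 of these, 0 rose, 2 fell and the median was -0.20, the count that fell being near the 10.9% of all genes that were lower. The 2 were the replication factor Mcm3 (-0.55 ± 0.14, adjusted p = 0.00522 by edgeR) and the mitotic kinase Cdk1 (-0.96 ± 0.32, adjusted p = 0.0316), the second at 4 to 50 counts per library.

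Gdf15 and Sesn2 are also targets of ATF4 and CHOP, factors of the integrated stress response. Of the 15 other tested genes of that list, 6 rose over both sexes and 0 fell, with a median of 0.48. Mthfd2, a mitochondrial folate enzyme, averaged 105 ± 32 CPM in male cisplatin and 19 ± 4.03 CPM in male saline. In females it averaged 57.4 ± 53.4 CPM in cisplatin and 18.6 ± 3.24 CPM in saline, and it passed in females (log2 1.63 ± 0.34, adjusted p = 0.04 by edgeR). Pck2, the mitochondrial phosphoenolpyruvate carboxykinase, rose by 0.51 ± 0.09 over both sexes (adjusted p = 0.000427). Which factor acted on Gdf15 and Sesn2 was not tested.

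**Figure D5:**
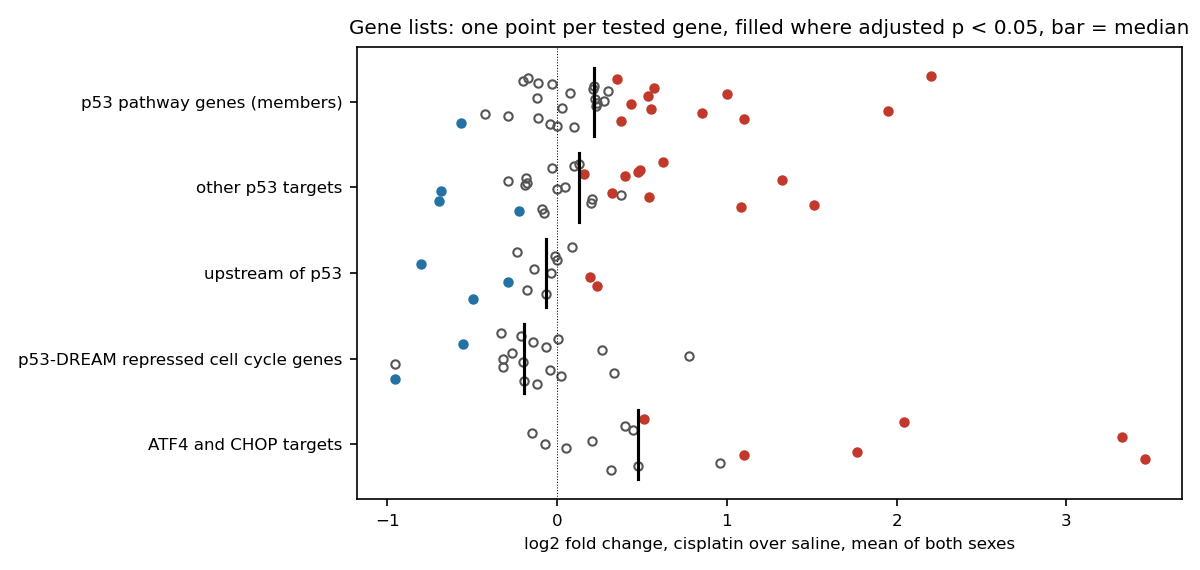
Log2 fold change of cisplatin over saline, mean of both sexes, for each tested gene of the 32 p53 pathway genes and of 4 further lists, with the 32 left out of the list of ATF4 and CHOP targets. Filled points passed at an adjusted p under 0.05 and vertical bars are medians, at 0.22 for the 32 genes and 0.48 for the ATF4 and CHOP targets.

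Markers of cell types were read in the same fits. The counts called here and in the next paragraph are over both sexes, where 16.2% of all genes were higher and 10.9% lower. All 12 proximal tubule markers had negative log2 fold changes over both sexes (median -0.57), and 0 of 12 passed by edgeR. Of the 12, 2 had an unadjusted p under 0.05 by edgeR, beside 7240 of all 18005 genes. Their sum was 51.7 to 1038 CPM in male cisplatin, 53.7 to 395 CPM in female cisplatin, 162 to 993 CPM in male saline and 162 to 566 CPM in female saline. Of the 6 thick ascending limb markers 1 fell (Egf, -1.27), with sums of 2034 to 8434 CPM in male cisplatin, 4070 to 9689 CPM in female cisplatin, 2779 to 14118 CPM in male saline and 1179 to 12266 CPM in female saline. Of 7 urothelium markers 3 rose (Krt20, Upk3a and Upk1b), with sums of 531 to 1705 CPM in male cisplatin, 382 to 731 CPM in female cisplatin, 483 to 604 CPM in male saline and 428 to 870 CPM in female saline. All 5 erythroid markers fell, with sums of 4.67 to 15.3 CPM in male cisplatin, 5.9 to 13.9 CPM in female cisplatin, 149 to 380 CPM in male saline and 97.5 to 391 CPM in female saline.

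Of 10 tested macrophage and monocyte markers 2 rose (Cd68 and Cd14) and 2 fell (Adgre1 and Mrc1), with sums of 132 to 247 CPM in male cisplatin, 108 to 242 CPM in female cisplatin, 97 to 196 CPM in male saline and 80.4 to 192 CPM in female saline. Neutrophil markers summed to at most 1.76 CPM in any library, and Ly6g was at 0 in every female cisplatin and every male saline library. Lymphocyte markers summed to at most 4.27 CPM in every library other than female saline 1. Of the principal cell markers Scnn1b rose and Aqp3 and Aqp4 fell, and of the thin limb markers Cryab fell.

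With the mean log2 CPM of the 18 proximal tubule and thick ascending limb markers as a covariate, 7 of the 32 were higher over both sexes and 2 lower, where that fit called 9.82% of all genes higher and 6.64% lower. Cdkn1a, Psrc1, Bax, Fas, Aen, Trp53inp1, Gdf15 and Ppm1d stayed past the threshold by edgeR (adjusted p between 0.00586 and 0.0216). Ccng1, Gtse1, Pidd1 and Sesn2 did not (0.0634 to 0.355), and Plk3 was called lower (log2 -0.82, adjusted p = 0.00677). In males 4 were higher (Psrc1, Bax, Aen and Gdf15) and 2 lower, against 7.21% and 3.12% of all genes, while Cdkn1a was at log2 0.89 with an adjusted p of 0.0567. The score was itself measured after treatment, and all 12 of its proximal tubule markers had negative log2 fold changes over both sexes. That fit therefore cannot tell a difference in tubule content from a response of these markers to cisplatin. The part of the urothelium, macrophage and erythroid markers in these results was not tested.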

How the data were processed

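Kidney inner medulla RNA was sequenced in 24 libraries, grouped by the labels. The authors deposited raw counts, whole numbers per Ensembl gene identifier and library. Per the submitters' processing notes, the tools were Trim Galore 0.6.7, Subread 2.0.1, featureCounts, DESeq2 1.28.1 and build mm10, with no roles given. The aligner, the strand setting and the annotation release used are not given in the sources at hand. Symbols came from a reference table (52083 of 55416 identifiers), positions from GENCODE M21 (GRCm38) and promoter windows from RefSeq (GRCm38.p6).

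In R 4.3.3, edgeR 4.0.16 fitted group means to all 24 libraries by quasi-likelihood, after TMM scaling and filterByExpr (minimum count 10). Contrasts were cisplatin against saline in males, in females and over both sexes, their difference, and female against male saline. An adjusted p under 0.05 (Benjamini-Hochberg, 18005 genes) counted as changed. CPM use TMM-scaled library sizes. Alternatives were DESeq2 (1.42.0) and its size factors, no filter, a replicate block, a marker covariate, 1 sex alone and left-out libraries. Counting error covers sequenced fragments only. Duplicate deposits were checked for within groups and none was found (61 pairs, lowest chi-square per gene 7.88).

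The 32 genes, the lists and the tests were chosen with earlier results of these data known. Full values are given for Trp53, Mdm2, Cdkn1a and members called in any cisplatin contrast, and of other pathway lists for up to 3 genes per direction by smallest adjusted p.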

Additional observations from a re-analysis of the deposited data

Results flagged for a closer look

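In 9 of 128 sets of values (a gene in a group) a single library lay far from the others of its group, where chance alone would give about 6.4, or 1 in 20. Under cisplatin these were Ppm1d in male cisplatin 6 (57.7 CPM, next 41.5), Pmaip1 in male cisplatin 1 (20.9 CPM, next 12.2), Trp53inp1 in male cisplatin 1 (106 CPM, next 64.3), Ddb2 in female cisplatin 1 (8.93 CPM, next 13) and Sesn2 in female cisplatin 5 (102 CPM, next 65.7). Under saline they were Tnfrsf10b in male saline 3 (8.1 CPM, next 6.75), Phlda3 in male saline 2 (51.7 CPM, next 40.9), Zmat3 in male saline 6 (24.4 CPM, next 18.9) and Perp in female saline 6 (67.1 CPM, next 47). Without the library concerned, Zmat3, Perp and Ddb2 passed over both sexes and Sesn2 did not.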

How the results depend on the processing

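With DESeq2 size factors the counts of genes called were 9 higher and 1 lower in males, 11 and 1 over both sexes and 0 in females, as in the fit reported. Of all 18005 genes, that fit called 2322 higher and 1398 lower in males, 2809 and 2055 over both sexes, and 33 and 13 in females. With no filter on low counts, 7 were higher and 1 lower in males and 9 and 1 over both sexes. Of all 41464 genes in that fit, 1838 were higher and 996 lower in males, and 2368 and 1645 over both sexes. Male libraries fitted alone gave 7 and 1, beside 1491 and 911 of 16587 genes. Female libraries alone gave 0, beside 12 higher and 8 lower of 17148 genes. The tubule marker covariate left 4 higher and 2 lower in males and 7 higher and 2 lower over both sexes. DESeq2's own test called 1 higher in females and 2 higher in female against male saline. Over all genes, those higher in females numbered 36 by edgeR, 9 with the replicate block and 155 by DESeq2.

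The labels do not say whether replicate numbers pair the libraries. The median correlation of same-numbered libraries lay between -0.0889 and 0.124 over the 6 pairs of groups, with single values from -0.288 to 0.269. With 5 or 6 library pairs in each, these values are too few to settle it. With the replicate block, 7 were higher and 1 lower in males (Gtse1 and Pidd1 lost) and 9 and 1 over both sexes (Pidd1 and Sesn2 lost). Of all 18005 genes, that fit called 1965 higher and 1368 lower in males, and 2140 and 1617 over both sexes.

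Leaving out each library in turn gave 6 to 11 higher and 1 to 2 lower in males, 0 to 1 higher and 0 lower in females, 8 to 14 higher and 1 to 2 lower over both sexes, and 0 for the difference of the sexes and for female against male saline. Of all 17902 to 18289 genes tested, 1755 to 3116 were then higher and 762 to 2152 lower in males. In females 13 to 105 were higher and 5 to 34 lower, and over both sexes 2023 to 3482 and 1313 to 2543. In these fits the log2 fold change of Polk in males ran from -0.1533 to 0.01601, and over both sexes that of Mdm2 from -0.03468 to 0.02951, of Bbc3 from -0.03686 to 0.08327 and of Polk from -0.06255 to 0.01819.

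Single genes were followed under every setting in males and over both sexes, where the signs that turned belonged to genes called under none of the settings. With the marker covariate these were Mdm4 (0.04642 in males, 0.02902 over both sexes), Fdxr (0.1037 in males, 0.05139 over both) and Eda2r (-0.0661 over both), and in females, where 0 of 32 were called in that fit, the covariate turned Trp53 (-0.0165), Mdm4 (0.01163), Polk (-0.0528) and Rrm2b (-0.04393). Without male cisplatin 5, female saline 1 and female saline 6 they were Mdm4 (0.002038) and Polk (0.02729) in males, and Mdm2 (0.06345) and Polk (0.056) over both; with the replicate block it was Mdm2 (0.002923). The cause was not tested. Psrc1, Gtse1, Pidd1 and Eda2r are limited by low counts.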
